A study of Mus musculus with 6 samples.

Results

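The 43 genes described here carry cells through the division cycle, copy DNA or hold cells out of the cycle. They were chosen by name, from 37086 genes with a transcript in the files. Each gene was represented by 1 transcript, the one with the most tags (reads assigned to it) summed over the 6 libraries. By role, 5 are G1 cyclins and their kinases, 4 belong to the switch from G1 to S phase, 4 are inhibitors that accompany exit from the cycle, 9 act in replication licensing and at the fork, 3 supply nucleotides, 7 are cyclins and kinases of G2 and mitosis, 9 act on mitotic chromosomes and the spindle, and 2 belong to the ubiquitin ligase of mitotic exit. All 43 passed the filter on low counts, which left 16743 genes for the tests.

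The RNA was extracted from the dorsal root ganglia of 18 embryonic mice (wild-type C57BL/6J, 14.5 days post coitum), combined before extraction. These ganglia hold the cell bodies of sensory neurons with their glia. From this single stock 6 sequencing libraries were made with poly(A)-primed low-input cDNA kits. In the 3 high-volume libraries the RNA entered reverse transcription in 9 µl, and in the 3 low-volume libraries in 1 µl, with a kit of its own for each, so that volume and kit cannot be told apart. Each volume was run once at 3, 10 and 30 ng of RNA. Errors and p-values below therefore describe how well the preparation of 1 pool repeats, and say nothing of variation between embryos.

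D-type cyclins with Cdk4 or Cdk6 phosphorylate the retinoblastoma protein, which releases E2F factors and with them the genes of S phase. Cdt1 helps to load the MCM helicase onto origins before replication, geminin blocks a second loading, and cyclin B with Cdk1 then drives mitosis until Cdc20 directs the anaphase-promoting complex to destroy the cyclins. In the embryonic ganglion most sensory neurons leave the cycle before glial progenitors do, so a bulk RNA sample mixes cells that divide with cells that have stopped.

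The chosen transcripts held 14160421 to 25867676 tags per high-volume library and 15920974 to 31524196 per low-volume library, and the 3 ng library was the shallowest of each volume. Levels are given as RPKM, the authors' tag count scaled to the length of the transcript in kilobases and to the tags of the library. The labelled tissue was checked against its markers: all 8 sensory neuron markers had a mean RPKM of 10 or more (list median 466), as had 5 of 8 glial lineage markers (list median 14.6), among them Fabp7 at 869, while Foxd3 stood at 0.353. Markers of other cells that can divide were also present, with list medians of 121 for 6 erythroid genes, 52.6 for 5 fibroblast genes and 5.46 for 5 vessel genes. The cells that carry the cell cycle transcripts cannot be told apart in these bulk libraries, nor can fewer cells be told apart from less RNA per cell.

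Promoters of 6 members are shown because they carry the letters that textbooks name for their phase, or, for Cdkn1a, none of them. The windows run from 250 bases before to 50 bases after the RefSeq start on GRCm38.p6 and are printed 5′ to 3′ on the strand of the gene. The motifs below were searched on both strands: the CCAAT box (CCAAT), bound by NF-Y; the cell cycle genes homology region, or CHR (TTTGAA or TTCGAA), known from genes of G2 and mitosis; and an E2F site (TTTGGCGC or TTTCCCGC), known from genes of S phase. Capitals mark matches on either strand. Ccnb2 (cyclin B2, chr9:70421505-70421804, minus strand), Cdk1 (the mitotic kinase, chr10:69352863-69353162, minus strand) and Plk1 (polo-like kinase, chr7:122159185-122159484, plus strand) are mitotic genes. Mcm5 (chr8:75109259-75109558, plus strand) and Mcm6 (chr1:128359656-128359955, minus strand) encode subunits of the replicative helicase, and Cdkn1a (chr17:29093519-29093818, plus strand) encodes the inhibitor p21.
Ccnb2: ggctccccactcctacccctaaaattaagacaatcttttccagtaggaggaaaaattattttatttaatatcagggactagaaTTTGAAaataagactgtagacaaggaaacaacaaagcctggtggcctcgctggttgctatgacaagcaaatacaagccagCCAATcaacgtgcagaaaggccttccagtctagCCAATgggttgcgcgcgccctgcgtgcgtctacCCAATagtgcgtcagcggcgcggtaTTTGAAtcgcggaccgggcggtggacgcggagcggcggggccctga
Cdk1: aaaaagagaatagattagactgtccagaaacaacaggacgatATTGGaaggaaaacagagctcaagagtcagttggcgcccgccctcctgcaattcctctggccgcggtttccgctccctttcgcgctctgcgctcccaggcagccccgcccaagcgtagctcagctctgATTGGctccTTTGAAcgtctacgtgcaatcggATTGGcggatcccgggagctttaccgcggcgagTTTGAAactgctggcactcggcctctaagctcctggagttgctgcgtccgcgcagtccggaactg
Plk1: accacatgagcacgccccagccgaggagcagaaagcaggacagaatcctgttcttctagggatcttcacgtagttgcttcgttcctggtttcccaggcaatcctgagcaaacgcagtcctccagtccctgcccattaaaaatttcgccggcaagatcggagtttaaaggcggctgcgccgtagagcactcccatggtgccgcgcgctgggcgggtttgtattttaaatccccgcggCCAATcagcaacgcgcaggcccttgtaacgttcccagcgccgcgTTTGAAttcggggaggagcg
Mcm5: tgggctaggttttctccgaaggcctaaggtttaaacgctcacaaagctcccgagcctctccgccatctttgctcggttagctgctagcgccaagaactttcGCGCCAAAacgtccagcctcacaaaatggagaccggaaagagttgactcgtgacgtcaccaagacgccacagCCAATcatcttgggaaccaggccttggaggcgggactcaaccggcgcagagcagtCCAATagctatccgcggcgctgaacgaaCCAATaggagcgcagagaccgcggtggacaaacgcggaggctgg
Mcm6: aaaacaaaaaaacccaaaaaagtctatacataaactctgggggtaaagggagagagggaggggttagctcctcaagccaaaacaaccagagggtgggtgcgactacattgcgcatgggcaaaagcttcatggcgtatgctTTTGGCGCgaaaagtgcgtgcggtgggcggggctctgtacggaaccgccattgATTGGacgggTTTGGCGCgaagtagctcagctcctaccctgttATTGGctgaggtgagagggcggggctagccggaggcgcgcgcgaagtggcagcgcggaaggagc
Cdkn1a: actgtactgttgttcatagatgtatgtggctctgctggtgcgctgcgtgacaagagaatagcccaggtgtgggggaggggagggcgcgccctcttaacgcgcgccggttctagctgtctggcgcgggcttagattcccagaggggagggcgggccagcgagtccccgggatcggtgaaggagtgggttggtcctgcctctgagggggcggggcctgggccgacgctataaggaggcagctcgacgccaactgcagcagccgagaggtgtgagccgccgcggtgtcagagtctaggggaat

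In the Ccnb2 window 3 CCAAT boxes lie in a row upstream of a CHR at the start site, with another CHR farther upstream, and in the Cdk1 window 2 CHR matches each lie near a CCAAT box. The Mcm5 and Mcm6 windows hold CCAAT boxes and E2F letters but no CHR. RefSeq windows were matched for 34 of the 43 genes. Of these, 24 held a CCAAT box (70.6%, against 37.4% of all 32851 windows of this length), 13 a CHR (38.2%, against 19.2%) and 6 an E2F site (17.6%, against 1.56%). The CHR matches lay mostly in genes of G2 and mitosis, in 11 of 15 windows, against 2 of the other 19, which were Mcm2 and Mcm7. The E2F letters were in 5 of 7 windows of licensing and fork genes (Mcm3, Mcm5, Mcm6, Mcm7 and Cdt1), in that of Cdk2, and in none of the 15 windows of G2 and mitosis. A match describes the letters only, and a window without one says nothing of the factor. The RefSeq start can also differ from the start of the transcript counted here, by 539 bases in Mcm7, 433 in Cdkn2c and 294 in E2f1.

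**Figure D1:**
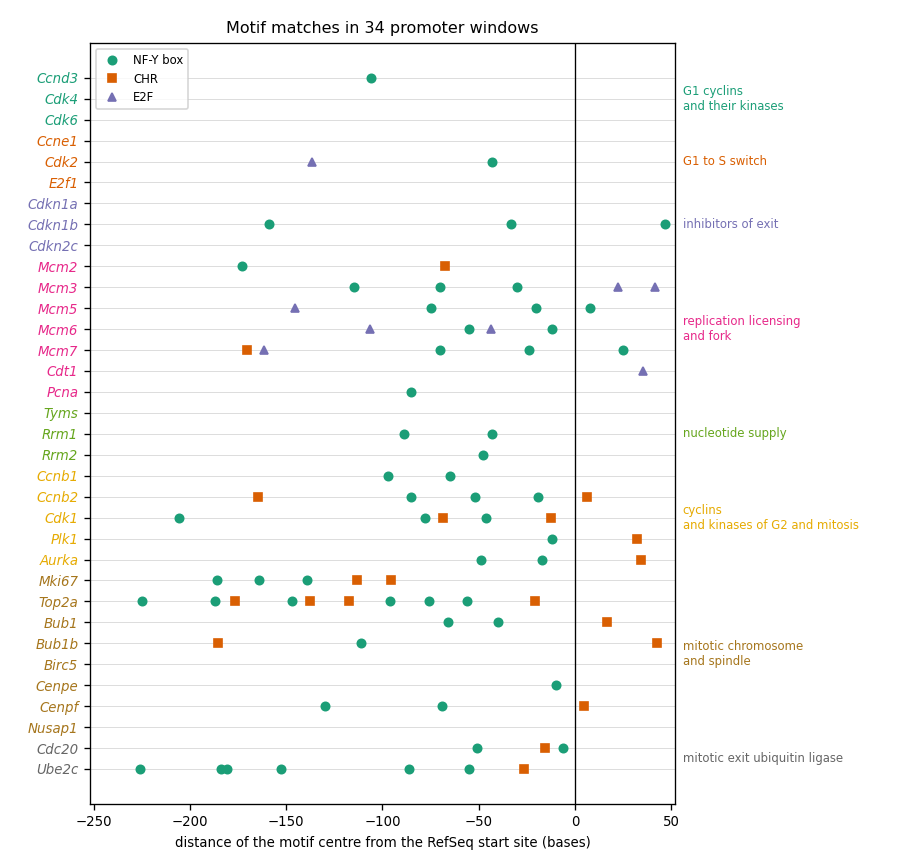
Motif matches in the promoter windows of 34 genes, by distance of the motif centre from the RefSeq start site (bases, start at 0), with genes grouped by role down the page. Squares (CHR) sit in 11 of 15 rows of G2 and mitosis, and triangles (E2F) in 5 of 7 rows of licensing and fork genes; circles are CCAAT boxes, labelled by their factor NF-Y.

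At the median, the members were more abundant and varied less between libraries than the tested genes as a whole. Their median level was 7.76 RPKM, against 3.14 for all tested genes; 18 of 43 reached 10 RPKM and 41 reached 1. The median coefficient of variation over the 6 libraries was 20.6%, against 30.2% for all tested genes. The tested genes were not matched to the members for level, and the part of level in this spread was not tested. By role, the median was 20.7 RPKM for the 2 genes of mitotic exit, 18.3 for nucleotide supply, 14.3 for G1 cyclins and their kinases, 11.6 for licensing and fork genes, 9.12 for cyclins and kinases of G2 and mitosis, 4.02 for mitotic chromosome and spindle genes, 3.96 for the switch to S phase and 3.26 for inhibitors of exit. With each gene represented by its transcript of highest RPKM, the inhibitors had a median of 8.14 and were no longer the lowest group. Rb1 then averaged 10.2 RPKM, against 3.23 above, and Cdkn1b 6.045, against 3.294. Cdkn1a and Cdkn2c also rose, to 21.85 and 1.107 RPKM, against 18.92 and 0.5063. The switch to S phase was then lowest at 4.08, nucleotide supply was highest at 26.2 and mitotic exit stood at 21.3.

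**Figure D2:**
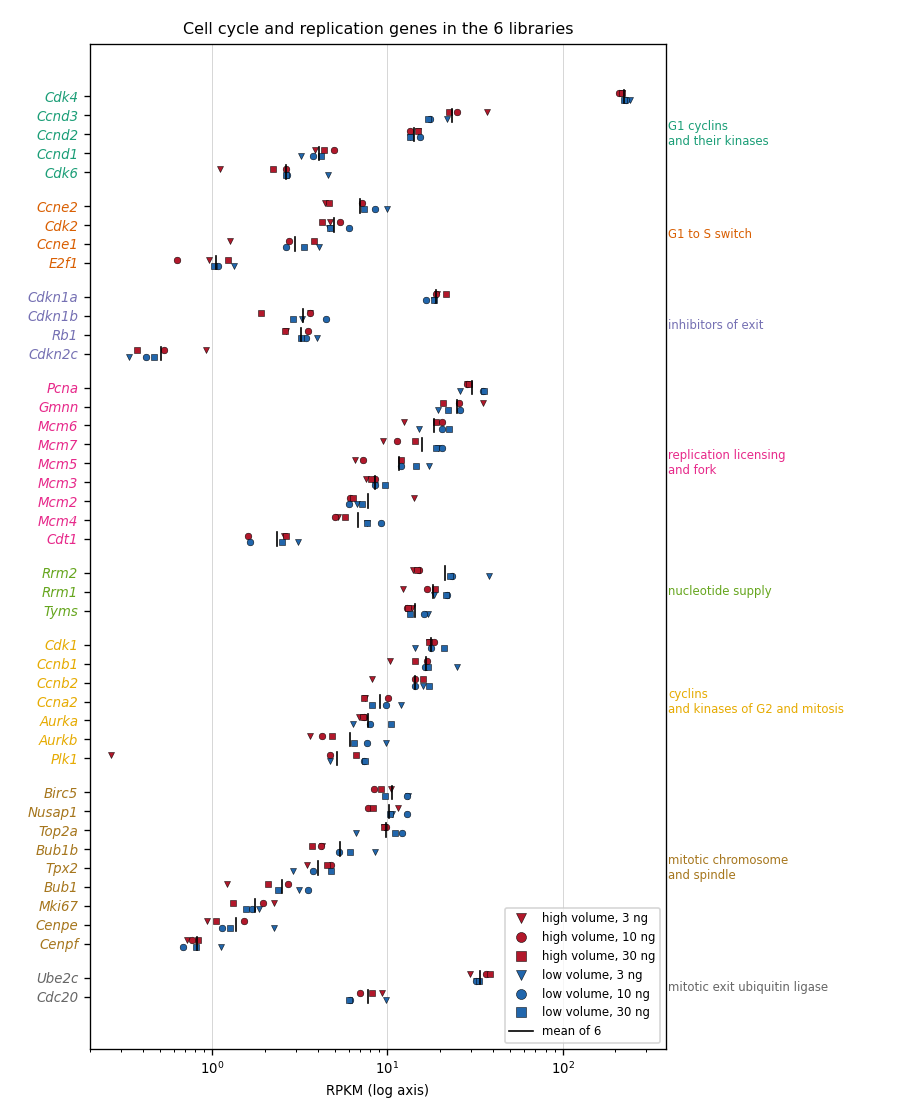
RPKM of the 43 genes (log axis) in each library, grouped by role, with high-volume libraries in red, low-volume libraries in blue, the symbol giving the input and a tick at the mean of 6. Cdk4 stands far to the right at 224 RPKM, Cdkn2c lies lowest at 0.506, and the 3 ng high-volume point of Plk1 lies far left of its row.

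Cdk4, the kinase partner of the D-type cyclins, was the most abundant member by far. It stood at 219, 210 and 219 RPKM in the high-volume libraries of 3, 10 and 30 ng, against 243, 229 and 225 in the low-volume libraries. These values varied little, with a coefficient of variation of 4.99%, and the ranges of the volumes did not overlap in RPKM, although the TMM-scaled counts used for the tests did overlap and differed by 0.04 ± 0.08 on the log2 scale (high minus low volume, SE), the opposite sign. In all, 31.2% of the exonic length of Cdk4 is shared with Tspan31, and tags there cannot be assigned to either gene. Cdk6, the other D-cyclin kinase, averaged 2.64 ± 1.12 RPKM (SD, n = 6 libraries). The difference between the kinases was 6.01 on the log2(RPKM + 1) scale, with Cdk6 lower in 6 of 6 libraries (two-sided exact sign-flip permutation test, p = 0.0312, the smallest that 6 libraries allow; 0.0375 after Benjamini-Hochberg adjustment over the 18 pairs of members compared).

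Of the D-type cyclins, Ccnd3 had the highest transcript RPKM at 23.5 ± 7.33, followed by Ccnd2 at 14.3 ± 0.887 and Ccnd1 at 4.05 ± 0.599 (SD, n = 6 libraries). All 3 steps of this order held in 6 of 6 libraries and passed the exact sign-flip permutation test (adjusted p = 0.0375 each). As in all 15 pairs that passed, p was the smallest that 6 libraries allow. The adjusted value therefore depends on how many of the 18 listed pairs reached it. A pass says only that the order was the same in every library of this pool. The first step of the D-type cyclin order depended on the transcript model. The last exon of the Ccnd2 transcript, 4709 bases of mostly untranslated sequence, averaged 9.70 RPKM, while its exons 1 to 4 averaged 25.0 to 52.7. With the median exon of each transcript in place of the whole, an alternative chosen after the exon values were seen, Ccnd2 stood 0.83 above Ccnd3 on the log2 scale in 6 of 6 libraries. In Ccnd1, 29.4% of the exonic length is shared with LTO1.

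The kinase of the switch to S phase, Cdk2, averaged 4.94 ± 0.654 RPKM and its partners cyclin E2 (Ccne2) and cyclin E1 (Ccne1) 6.97 ± 2.16 and 2.97 ± 1.01 (SD, n = 6 libraries). Ccne2 was above Ccne1 in 6 of 6 libraries, by 1.00 ± 0.41 on the log2(RPKM + 1) scale (exact permutation test, adjusted p = 0.0375), with 20.9% of the exonic length of Ccne2 shared with Ints8. E2f1, a transcription factor of S phase genes, was low at 1.04 ± 0.244 RPKM, from 41 to 96 tags per library.

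Among the inhibitors, Cdkn1a (p21) stood above the others. It had 19.2, 18.9 and 21.7 RPKM in the high-volume libraries of 3, 10 and 30 ng, against 18.4, 16.7 and 18.6 in the low-volume libraries. The high-volume values lay above the low-volume values without overlap, by a margin smaller than the spread within a volume. Cdkn1b (p27) averaged 3.29 ± 0.862 RPKM, Rb1, the retinoblastoma protein itself, 3.23 ± 0.538 and Cdkn2c (p18) 0.506 ± 0.212, from 14 to 39 tags per library. Cdkn1b was lower than Cdkn1a in 6 of 6 libraries by 2.24 on the log2(RPKM + 1) scale, and Cdkn2c by 3.73 (exact permutation test, adjusted p = 0.0375 each). Of 4 other inhibitors of these families outside the 43, Cdkn2d (p19) averaged 95.3 ± 13.4 RPKM and Cdkn1c (p57) 54.4, above Cdkn1a, while Cdkn2b (p15) averaged 0.449 and Cdkn2a was listed at 0 in all 6 libraries.

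In the licensing group Pcna, the sliding clamp of the fork, led at 30.5 ± 3.92 RPKM, followed by Gmnn (geminin) at 24.8 ± 5.74. The 6 subunits of the MCM helicase were not equal: Mcm6 averaged 18.4 ± 3.77 RPKM, Mcm7 15.6 ± 4.66, Mcm5 11.6 ± 4.15, Mcm3 8.47 ± 0.707, Mcm2 7.76 ± 3.19 and Mcm4 6.76 ± 1.69 (SD, n = 6 libraries). Cdt1, the loading factor that geminin binds, was the lowest of the group at 2.34 ± 0.602 RPKM. Gmnn exceeded Cdt1 in 6 of 6 libraries by 2.94 ± 0.47 on the log2(RPKM + 1) scale (exact permutation test, adjusted p = 0.0375). Most Cdt1 tags lay near the 3′ end: its exon 10 averaged 5.01 RPKM, against 0.456 to 0.878 in exons 1 to 5, and exons 1 to 8 held no tag in the 3 ng high-volume library and 1 tag, in exon 6, in the 3 ng low-volume library.

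Nucleotide supply genes were close to each other in transcript RPKM. The ribonucleotide reductase subunits Rrm2 and Rrm1 averaged 21.4 ± 9.19 and 18.3 ± 3.55, and Tyms (thymidylate synthase) 14.4 ± 1.73 (SD, n = 6 libraries). Rrm2 minus Rrm1 was 0.15 ± 0.46 on the log2(RPKM + 1) scale, above 0 in 4 of 6 libraries, so no order was found (exact permutation test, p = 0.594, adjusted 0.594). The Tyms value is low for its exons. The transcript with most tags is annotated as a target of nonsense-mediated decay, its exon 3 averaged 0.128 RPKM and its last exon of 2932 bases 3.31, while its other exons averaged 36.9 to 76.3.

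Among genes of G2 and mitosis, Cdk1, the mitotic kinase, averaged 17.7 ± 2.15 RPKM, its partners Ccnb1 (cyclin B1) and Ccnb2 (cyclin B2) 16.6 ± 4.78 and 14.3 ± 3.23, and Ccna2 (cyclin A2) 9.12 ± 1.78 (SD, n = 6 libraries). Cdk1 exceeded Cdk2 in 6 of 6 libraries by 1.65 on the log2(RPKM + 1) scale, and Ccna2 was below Ccnb1 in 6 of 6 by 0.78 (exact permutation test, adjusted p = 0.0375 each). No order was found for Ccnb2 minus Ccnb1 at −0.19 ± 0.26 or for Aurkb minus Aurka, the Aurora kinases of the chromosomal passenger complex and of the spindle poles, at −0.35 ± 0.51 (exact permutation test, p = 0.125, adjusted 0.132 each). The first of these passed with the transcript of highest RPKM, at −0.30, and with CPM, at −0.87 (exact permutation test, adjusted p = 0.0375 each). Aurka averaged 7.71 ± 1.46 RPKM, Aurkb 6.08 ± 2.35 and Plk1 5.18 ± 2.70.

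Mitotic chromosome and spindle genes spread over a wide range. Birc5 (survivin) averaged 10.6 ± 1.97 RPKM, Nusap1 (a spindle protein) 10.2 ± 1.92 and Top2a (topoisomerase II alpha, which untangles chromosomes) 9.79 ± 1.86. The checkpoint genes Bub1b and Bub1 averaged 5.32 ± 1.77 and 2.49 ± 0.811, and Tpx2, an activator of Aurka, 4.02 ± 0.771 (SD, n = 6 libraries). The long transcripts were lowest: Mki67, the proliferation marker Ki-67, with 10075 bases, averaged 1.76 ± 0.329 RPKM, Cenpe, a kinetochore motor, 1.36 ± 0.481, and Cenpf, a kinetochore protein, with 11137 bases, 0.817 ± 0.158. Bub1b exceeded Bub1 in 6 of 6 libraries by 0.85 ± 0.36 on the log2(RPKM + 1) scale (exact permutation test, adjusted p = 0.0375). Cenpf minus Cenpe was −0.36 ± 0.18 (exact permutation test, adjusted p = 0.0375), an order that did not hold under other measures. It was −0.16 with CPM (exact permutation test, adjusted p = 0.219), 0.49 with the transcript of highest RPKM (exact permutation test, adjusted p = 0.0993) and −0.11 with the median exon, where Cenpf was the higher in 4 of 6 libraries (exact permutation test, adjusted p = 1.0). At mitotic exit Ube2c, the ubiquitin-conjugating enzyme of the anaphase-promoting complex, averaged 33.7 ± 3.29 RPKM and the activator Cdc20 7.73 ± 1.59, lower in 6 of 6 libraries by 2.00 ± 0.32 on the log2(RPKM + 1) scale (exact permutation test, adjusted p = 0.0375).

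Exon values show how far these levels rest on the last exon. In Cdk1 exons 2 to 7 averaged 45.7 to 57.1 RPKM and the last exon, 1962 bases, 4.98, so that the median exon (46.3) stood 2.62 times above the transcript value. The same ratio was 3.90 for Tyms, 2.99 for Ccnd2 and 2.42 for Birc5. In Cdk6 the ratio ran the other way, at 0.119: its last exon averaged 3.73 RPKM and exons 1 to 7 from 0 to 0.497. Mki67 and Cdt1 also had a median exon below the transcript value, with ratios of 0.436 and 0.416.

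**Figure D3:**
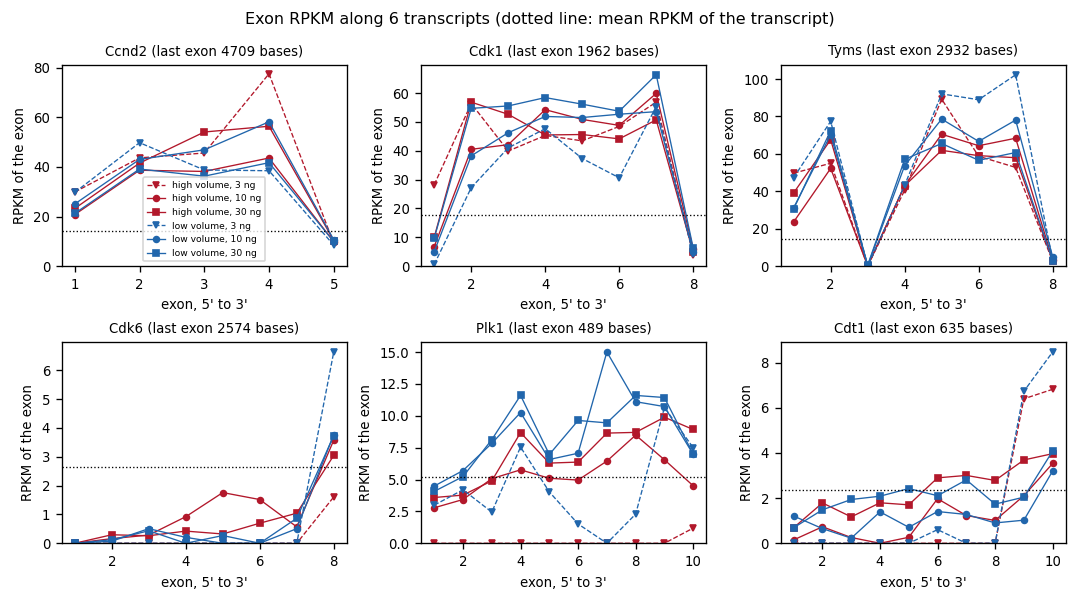
RPKM of each exon, 5′ to 3′, along 6 transcripts in each library (high volume red, low volume blue; dashed lines are 3 ng), with a dotted line at the mean RPKM of the transcript. At the mean, the last exon lies below all others in Ccnd2 and Cdk1 and below all but exon 3 in Tyms, and it is the highest in Cdk6 and, with exon 9 next to it, in Cdt1, and the 3 ng high-volume library has tags only in the last exon of Plk1.

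The exons of each transcript were also divided into a 5′ and a 3′ part. Each exon went whole to the side of the transcript's middle on which its own midpoint lay. The log2 ratio of tags per kilobase in the 5′ part over the 3′ part had a median of −0.12 over 42 members. It was −0.54 over 12325 tested genes with enough tags. Among members it ran from −3.79 in Cdk6 to 3.86 in Tyms, with Cdk1 at 3.15. In Tyms and Cdk1 the 3′ part holds the whole long last exon, so these 2 values restate the exon contrast given above. For the 14 members of 2 to 3 kb the medians were −0.01, −0.76 and −0.55 in the high-volume libraries of 3, 10 and 30 ng, against −0.80, −0.85 and −0.62 in the low-volume libraries. For all tested genes of that length they were −0.44, −0.48 and −0.26 at high volume, against −0.35, −0.42 and −0.37 at low volume. In this class the members thus stood lower in all but the 3 ng high-volume library. The other length classes ran the other way. Members stood higher than all tested genes in every library at 3 to 4 kb (n = 10) and over 4 kb (n = 8). Under 2 kb (n = 10) they stood higher in all but the 3 ng high-volume library. Introns held few tags: their density was 0.47% of the exon density at the median over 42 members, against 1.11% over all tested genes, or 0.44% against 0.61% when introns that overlap an exon of any gene were set aside.

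The volume comparison asked whether the reaction volume, with its kit, changed the measured level of a gene. In the edgeR quasi-likelihood test over all 6 libraries, with input as a covariate and Benjamini-Hochberg adjustment over all genes, 0 of the 43 members passed an adjusted p of 0.05, against 0.00597% of all tested genes (1 of 16743). At an unadjusted p under 0.05 there were 7 of 43 (16.3%), against a background of 6.49%. Of these, 6 were lower in the high-volume libraries (14.0%, against 3.25%), namely Mcm4, Mcm5, Mcm7, Rrm2, Aurkb and Bub1b, and only Ccnd3 was higher (2.33%, against 3.24%). The backgrounds of these counts, and of those below, were not matched to the members for level or spread. The part of level in the counts was not tested. The median log2 difference of high minus low volume was −0.07 over the members, against 0.02 over all tested genes. Scaling by total tags in place of TMM moved these medians to −0.19 and −0.10. The summed RPKM of the members was 613, 619 and 629 in the high-volume libraries of 3, 10 and 30 ng, against 709, 685 and 678 in the low-volume libraries, a sum in which Cdk4 is the largest term. The summed RPKM of the 8 glial lineage markers also lay apart, at 930.5, 1003 and 959 at high volume, against 1077, 1042 and 1071 at low volume, a sum that is mostly Fabp7. Without Cdk4 the member sums were 394, 409 and 410 at high volume, against 466, 456 and 452.5 at low volume. Without Fabp7 the glial sums were 130.0, 139 and 131, against 167, 155 and 144. RPKM is scaled to library tags without the TMM factors. These were 0.947, 0.972 and 0.960 in the high-volume libraries of 3, 10 and 30 ng, against 1.045, 1.054 and 1.027 at low volume. The median RPKM of all tested genes was likewise 2.97, 3.01 and 2.97 at high volume, against 3.28, 3.28 and 3.16 at low volume. The part of this scaling in the sums was not tested. By gene, on the TMM-scaled counts of the fit, the glial markers did not share the direction of their sum. Of the 8, 5 had a log2 difference above 0, and the median of the 8 was 0.11 (−0.01 with scaling by total tags). In edgeR 0 of 8 passed the adjusted threshold, and Foxd3 was at 0 in the 3 ng low-volume library. The part of the glial markers in the member differences was not tested.

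Ccnd3 was the one member to pass in any edgeR fit with the usual filter. It had 37.1, 24.8 and 22.4 RPKM in the high-volume libraries of 3, 10 and 30 ng, against 21.8, 17.6 and 17.1 in the low-volume libraries. The high-volume library was the higher at every input, and no high-volume value fell within the low-volume range. The log2 difference was 0.70 ± 0.16 (SE; edgeR, unadjusted p = 0.0029, adjusted p = 0.623) over 6 libraries. In the 4 libraries of 10 and 30 ng it was 0.57 ± 0.12 (edgeR, adjusted p = 0.0456), in a fit with 1 residual degree of freedom that called 1.66% of 16565 genes. With the replicate block and a correction for GC content it was 0.44 ± 0.17, against 0.70 with the block alone. The stretch that Ccnd3 shares with Bysl, 18.2% of its exonic length, lies in the last exon. At each input exon 2 also stood higher at high volume, at 31.7, 15.8 and 15.8 RPKM, against 18.9, 10.2 and 8.59 at low volume. There the 3 ng low-volume value exceeded the 10 and 30 ng high-volume values, so the volumes overlapped. The same overlap held in exons 1 and 3, but not in exon 4. The part of the shared stretch in the difference was not tested.

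Mcm4, Mcm5 and Mcm7, subunits of the MCM helicase, were lower at high volume at an unadjusted p under 0.05. Mcm7 had 9.38, 11.3 and 14.4 RPKM in the high-volume libraries of 3, 10 and 30 ng, against 19.4, 20.5 and 19.0 in the low-volume libraries. The low-volume values were nearly level over input while the high-volume values were lower throughout, and high minus low volume came to −0.62 ± 0.16 in log2 (SE; edgeR, adjusted p = 0.649). Mcm4 had 5.22, 5.02 and 5.74 RPKM at high volume, against 7.69, 9.24 and 7.63 at low volume, which gave −0.47 ± 0.19 in log2 (edgeR, adjusted p = 0.763) and no overlap. Mcm5 had 6.49, 7.24 and 12.0 RPKM at high volume, against 17.3, 12.0 and 14.5 at low volume, where the 30 ng high-volume library reached the lowest low-volume one (−0.66 ± 0.25 in log2; edgeR, adjusted p = 0.763). The Mcm5 difference was −0.34 without the 3 ng low-volume library and −0.37 over the libraries of 10 and 30 ng. Of the other subunits, Mcm3 stood at 0.00 ± 0.17, Mcm6 at −0.02 ± 0.16 and Mcm2 at 0.47 ± 0.31 in log2, which was 0.01 without the 3 ng high-volume library.

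Rrm2 and the mitotic genes Aurkb and Bub1b were also lower at high volume in every pairing by input. Rrm2 had 14.0, 15.1 and 14.7 RPKM in the high-volume libraries of 3, 10 and 30 ng, against 38.1, 23.4 and 22.7 in the low-volume libraries, a gap of −0.75 ± 0.19 in log2 (SE; edgeR, adjusted p = 0.649). The 3 high-volume values were almost equal, and the 3 ng low-volume value stood above all others. Aurkb had 3.61, 4.24 and 4.80 RPKM at high volume, against 9.82, 7.61 and 6.41 at low volume, a gap of −0.75 ± 0.28 in log2 (edgeR, adjusted p = 0.761). Bub1b had 4.21, 4.17 and 3.69 RPKM at high volume, against 8.46, 5.27 and 6.14 at low volume, a gap of −0.56 ± 0.22 in log2 (edgeR, adjusted p = 0.763). Without the 3 ng libraries the gaps of Rrm2 and Aurkb were −0.50 each. In Aurkb the volumes drew closer as the input increased, while in Bub1b the closest pair was at 10 ng.

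**Figure D4:**
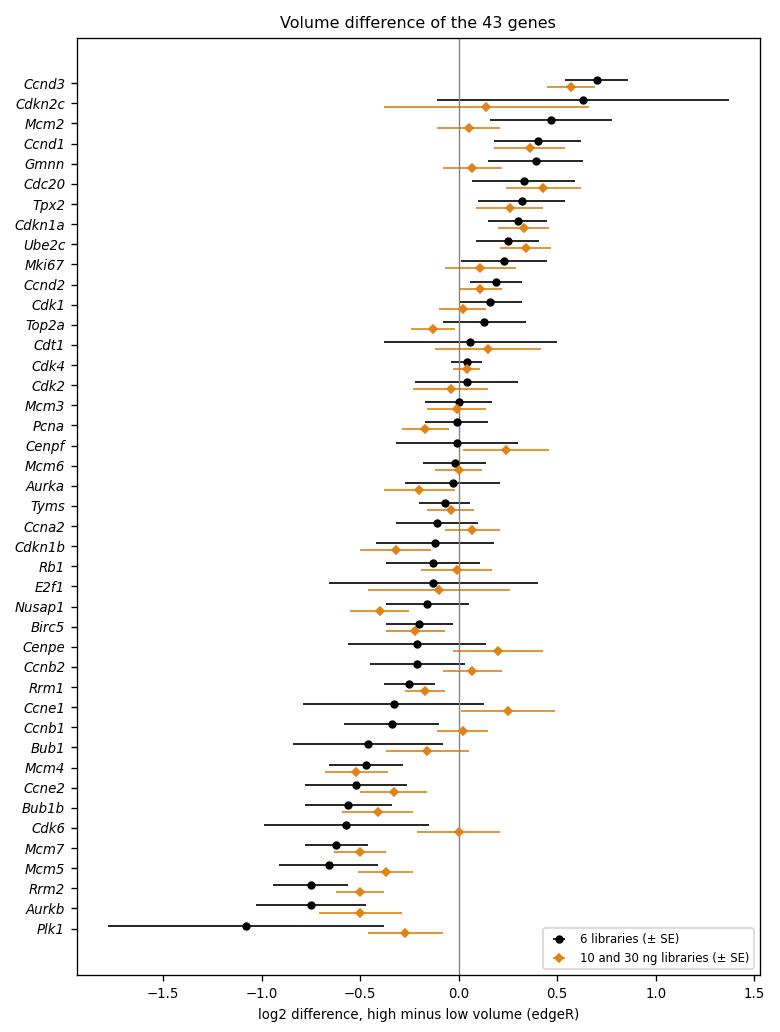
Log2 difference of high minus low volume with its SE for each of the 43 genes (edgeR), over 6 libraries in black and over the 4 libraries of 10 and 30 ng in orange. Ccnd3 lies highest at 0.70 and Plk1 lowest at −1.08 with a wide error; Mcm4, Mcm5, Mcm7, Rrm2, Aurkb and Bub1b lie left of 0 in both fits.

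Counted by overlap of TMM-scaled counts (CPM) rather than by a test, 3 members (Ccnd1, Ccnd3 and Cdkn1a; 6.98%, against a background of 8.05%) had every high-volume library above every low-volume one. The reverse held for 5 members (Mcm4, Mcm7, Rrm2, Aurkb and Bub1b; 11.6%, against 7.11%). For Ccnd1 this held only after TMM scaling: its RPKM was 3.87, 4.97 and 4.34 in the high-volume libraries of 3, 10 and 30 ng, against 3.21, 3.74 and 4.17 in the low-volume libraries, which overlap. With DESeq2 in place of edgeR, Ccnd3, Mcm7 and Rrm2 passed the adjusted threshold, 3 of the 19 members given an adjusted p, against 3.56% of all 5057 genes given one.

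The slope on input asked whether levels followed the amount of RNA. No member passed the adjusted threshold in edgeR (0 of 43, background 0.0%), and 3 had an unadjusted p under 0.05 (6.98%, background 7.76%), with Ccnd3 lower and Mcm6 and Rrm1 higher at more input. DESeq2 also called 0 of 43 (background 0.291%). Mcm6 had 12.5, 20.4 and 19.0 RPKM in the high-volume libraries of 3, 10 and 30 ng, against 15.2, 20.6 and 22.4 in the low-volume libraries, so that both 3 ng libraries were the lowest. For the interaction of volume and input 0 of 43 passed (background 0.0%) and 3 had an unadjusted p under 0.05 (Mcm2, Mcm5 and Plk1; 6.98%, background 8.31%).

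Plk1 and Mcm2 departed in the 3 ng high-volume library, in opposite directions. Plk1 had 0.264, 4.72 and 6.62 RPKM in the high-volume libraries of 3, 10 and 30 ng, against 4.72, 7.34 and 7.41 in the low-volume libraries. The 3 ng high-volume value rests on 9 tags, all in the last exon, against 176 to 554 tags in the other 5 libraries, and exons 1 to 9 held none. The volume difference of Plk1, −1.08 ± 0.70 in log2 over 6 libraries, was −0.25 without that library. Mcm2 moved the other way in the same library, with 14.2, 6.10 and 6.34 RPKM at high volume, against 6.71, 6.01 and 7.19 at low volume, so that 5 libraries lay close together and 1 stood apart. Its interaction was −0.40 ± 0.17 and that of Plk1 1.04 ± 0.42 (SE, log2 per doubling of input; edgeR, adjusted p = 0.588 each).

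**Figure D5:**
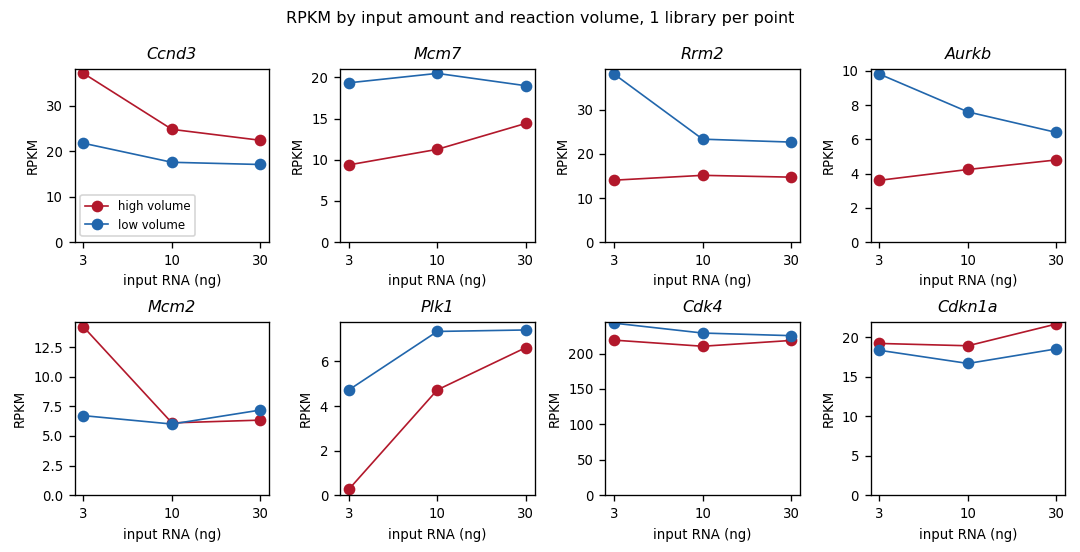
RPKM of 8 genes against the input of 3, 10 and 30 ng, with 1 library per point, high volume in red and low volume in blue. Ccnd3 runs above its low-volume line and Mcm7, Rrm2 and Aurkb below it at every input, whereas Mcm2 and Plk1 part from it mainly at 3 ng; Cdk4 and Cdkn1a are nearly level.

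Counted over all members, the 3 ng high-volume library lay at least 2-fold from the median of the other 5 libraries for 5 of 43 genes (Cdk6, Ccne1, Plk1 and Bub1 lower, Mcm2 higher), against a background of 21.3% of all tested genes. In the 3 ng low-volume library this held for 1 member, Rrm2, against 22.4%, and in the 10 and 30 ng libraries for none, against 2.21% and 1.66% at high volume and 2.62% and 1.92% at low volume. High and low volume differed at least 2-fold for 12 members at 3 ng (background 30.4%), for 0 at 10 ng (4.34%) and for 0 at 30 ng (2.01%). Of the 12, Gmnn, Mcm2 and Cdkn2c were higher and 9 were lower at high volume, with Plk1 at −3.24 and Cdk6 at −1.76 on the log2 scale. The backgrounds of these counts were not matched to the members for level.

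Exons without a tag were also most frequent in the 3 ng libraries. Of the 534 exons of the 43 transcripts, 149, 15 and 18 were empty in the high-volume libraries of 3, 10 and 30 ng, against 87, 18 and 8 in the low-volume libraries. Brought to the depth of the shallowest library, the shares were 27.9%, 4.73% and 5.43% at high volume, against 16.4%, 5.81% and 4.35% at low volume. The high-volume 3 ng library thus had the most empty exons, while the 10 and 30 ng libraries were alike. Over the exons of all tested genes the shares were 43.8%, 20.3% and 18.0% at high volume, against 40.9%, 20.6% and 19.7% at low volume.

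Other genes of the same pathways, outside the 43, were read from the same test. None passed the adjusted threshold for volume over 6 libraries: 0 of 15 other genes of origin licensing and firing, 0 of 25 of DNA synthesis, 0 of 28 of mitosis and 0 of 28 tested regulators of cycle entry and exit (edgeR, background 0.00597%). DESeq2 also called 0 in each list, but gave an adjusted p to only 6, 12, 7 and 6 of their genes, in that order. At an unadjusted p under 0.05 there were 4 of these 96 (4.17%, against the background of 6.49%), and all 4 were lower at high volume (4.17%, against 3.25%). They were Orc3, an origin recognition subunit (log2 difference −0.50), Fen1, the flap endonuclease (−0.50), Ndc80, a kinetochore subunit (−0.92), and Kif20a, a mitotic kinesin (−0.46). In the 10 and 30 ng libraries 1 passed, Fzr1, an activator of the anaphase-promoting complex in G1, at 0.59 ± 0.12 (SE; edgeR, adjusted p = 0.0346, background 1.66%). It had 13.7, 16.0 and 17.2 RPKM in the high-volume libraries of 3, 10 and 30 ng, against 20.7, 11.2 and 12.9 in the low-volume libraries, so its 3 ng pair ran the other way. The most abundant of these genes were Orc6 (50.7 ± 5.73 RPKM) and Orc3 (27.8 ± 8.04) of the origin, Rpa3 (70.2 ± 7.58) and Rfc2 (53.8 ± 8.96) of the fork, Cks2 (39.2 ± 4.89) and Pttg1, securin (33.8 ± 3.23), of mitosis, and Cdkn2d and Cks1b (83.1 ± 7.71) of the regulators (SD, n = 6 libraries).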

How the data were processed

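Poly(A)-primed cDNA of 1 RNA pool was sequenced as 6 libraries, 3 per reaction volume. The genome build was GRCm38.p1 and the tools named are Bowtie2 2.1.0, TopHat2 2.0.8 and CASAVA 1.8, per the submitters' processing notes. Which program counted reads, and on which annotation release, is not given in the sources used here. Per the file headers, the authors deposited for every transcript, exon and intron a tag count, which is a whole-number count of reads without further scaling. They also deposited RPKM, which is that count scaled by the authors to feature length and library tags. For all 93615 transcripts the exon counts added up to the transcript count. Intervals annotated on both strands carried equal counts in every library, so the counts were taken to ignore strand, and tags in stretches shared between genes cannot be assigned.

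Transcripts were matched to GENCODE M21 (89664 matched, 3951 not), and each of 37086 genes was represented by its transcript with the most tags. Counts were tested over all genes with edgeR 4.0.16 in R 4.3.3 (quasi-likelihood, TMM, filterByExpr, reaction volume and centred log2 input, 3 residual degrees of freedom), with Benjamini-Hochberg adjustment and a threshold of 0.05; SEs follow from the F statistic. The fit was also run on simulated counts with the same dispersion in every library. That run does not cover the wider deviations of the 3 ng libraries, so nothing is concluded from it here. Alternatives were DESeq2 1.42.0, other scalings, no filter, another transcript, fits without the 3 ng libraries or 1 library, and a replicate block. Pairs of members were compared on log2(RPKM + 1), which understates folds of low genes, with a two-sided exact sign-flip test. Without molecular identifiers, PCR copies are part of each tag count. Deviations between libraries used TMM-scaled CPM plus 0.5. Promoter windows come from RefSeq (GRCm38.p6). All 43 members are named. From the other pathway lists, those named are the 2 most abundant genes of each and any past the threshold, and genes named for an unadjusted p, Cdkn1c, Cdkn2a and Cdkn2b were added after their values were seen. The members and lists were chosen with earlier results of these data known. Depth ranged from 14160421 to 31524196 tags per library, and E2f1 and Cdkn2c rest on under 100 tags in each library.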

Additional observations from a re-analysis of the deposited data

Results flagged for a closer look

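In 4 of the 43 members the highest or lowest of the 6 libraries stood apart from the rest, as measured by the gap to its nearest neighbour over the whole range of RPKM. That is 9.30% of the members, against 13.4% of all 16743 tested genes (2247) by the same measure. The cut-off is set so that about 1 in 20 groups pass it by chance. The gap was 0.856 of the range for Mcm2, where the 3 ng high-volume library was highest (14.2 RPKM, against 6.01 to 7.19 in the other 5). For Cdkn2c it was 0.66, again with the 3 ng high-volume library highest, at 0.915 RPKM from 35 tags. For Ccnb2 it was 0.685, with the same library lowest at 8.13 RPKM. For Cenpf it was 0.665, with the 3 ng low-volume library highest at 1.12 RPKM. All 4 outlying values came from 3 ng libraries, and the part of input or depth in them was not tested.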

How the results depend on the processing

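With 1 gene of all tested past the threshold for volume in edgeR, the count was 11 with no filter on low counts, 180 with DESeq2, 275 without the 3 ng libraries and 0 to 2 when 1 library was left out. With no filter the input slope gave 2 genes and the interaction 254 (1 of them a member, Plk1), against 0 each with the filter. The input slope gave 45 genes with DESeq2 and 1 without the 3 ng libraries. Of the members, 3 passed for volume with DESeq2 and 1 without the 3 ng libraries, and 0 under each of the other alternatives run. Libraries with the same replicate number share an input amount, and their deviations from the group means correlated by 0.042 (3 ng), 0.151 (10 ng) and 0.018 (30 ng) over genes, so the numbers were not taken to pair the libraries. With the replicate block 0 genes passed, and 0 with the block and a GC correction. Of the 18 pairs, 15 passed; 0 passed with any 1 library left out, since the smallest p of 5 libraries is above the threshold. Reversals were Ccnd2 minus Ccnd3 (0.85 with CPM, 0.83 with the median exon), Rrm2 minus Rrm1 (−0.70 with CPM, −0.09 with the median exon, −0.02 to 0.24 with 1 library left out) and Cenpf minus Cenpe (0.49 with the transcript of highest RPKM). That choice of transcript moved the median level of the members to 9.03 RPKM, against 7.76. CPM ignores length, and the cause of the other changes was not tested. Low tag counts limit what can be said of Cdkn2c, E2f1 and the 3 ng value of Plk1.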
